A study of Mus musculus with 6 samples.

Results

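The genes described here are 10 immediate early genes, chosen by symbol: Egr1, Egr2, Egr3, Nr4a1, Nr4a2, Nr4a3, Arc, Ier2, Dusp1 and Btg2. They were followed in RNA-seq libraries of mouse RPE-choroid, the retinal pigment epithelium (RPE) together with the vascular choroid beneath it. All 10 were found among the 15663 genes listed for every library, and all 10 were among the 13454 genes that entered the test because 2 or more libraries had over 50 counts. The 6 libraries came from 3 untreated control mice and 3 mice with subretinal fibrosis (SRF), all male young adults of the strain labelled C57BL/6 (C57BL/6J in the study's methods) without a transgene. The SRF mice had received 4 laser burns per eye, and 10 days later each lesion was burned again. RNA was prepared 20 days after this second laser. The whole RPE-choroid was collected, so a library held unburned tissue along with the lesions, and fewer cells of a type cannot be told apart from less RNA in each cell.

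Immediate early genes are switched on within minutes of a signal at the cell surface, without new protein synthesis, and their short-lived transcripts are soon lost again. Calcium, cyclic AMP and the ERK kinase cascade reach them through factors that already sit on their promoters, chiefly CREB, which binds the cyclic AMP response element (CRE), and serum response factor with its ETS partners, which bind the CArG box. Egr1, Egr2 and Egr3 encode zinc finger transcription factors, and Nr4a1, Nr4a2 and Nr4a3 encode orphan nuclear receptors whose activity follows their abundance. Arc encodes a protein of synapses that guides receptor uptake in neurons, Ier2 a nuclear regulator, Dusp1 a phosphatase that switches off MAP kinases, and Btg2 a growth-restraining partner of the mRNA deadenylation machinery.

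Promoter sequences are shown because every gene with a listed window has CRE letters before a listed start. RefSeq windows on GRCm38.p6 were matched for 6 of the 10 genes by symbol, and Egr1, Egr3, Arc and Ier2 had no entry. Each sequence below is the gene's own strand, from 250 bases before the RefSeq start up to the first annotated exon base. Capitals mark the core CRE letters TGACG or the reverse complement CGTCA, and in Egr2 also a CArG box. A full CRE, TGACGTCA, holds both core forms, which overlap.
Nr4a1 (chr15:101266596-101266845, forward strand): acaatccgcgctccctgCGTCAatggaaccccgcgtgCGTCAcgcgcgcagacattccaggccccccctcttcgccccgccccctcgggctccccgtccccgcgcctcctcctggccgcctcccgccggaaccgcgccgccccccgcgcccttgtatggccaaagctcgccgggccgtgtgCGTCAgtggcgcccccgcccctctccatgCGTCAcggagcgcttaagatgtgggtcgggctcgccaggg
Nr4a2 (chr2:57124004-57124253, reverse strand): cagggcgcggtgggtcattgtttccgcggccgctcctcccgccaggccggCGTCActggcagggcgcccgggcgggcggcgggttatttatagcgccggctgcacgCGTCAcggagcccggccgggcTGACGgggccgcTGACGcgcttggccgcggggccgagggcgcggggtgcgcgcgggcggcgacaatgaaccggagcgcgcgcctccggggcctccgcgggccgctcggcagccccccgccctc
Nr4a3 (chr4:48045055-48045152, forward strand): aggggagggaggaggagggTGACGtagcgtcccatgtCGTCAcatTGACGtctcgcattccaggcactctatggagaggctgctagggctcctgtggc
Egr2 (chr10:67537619-67537868, forward strand): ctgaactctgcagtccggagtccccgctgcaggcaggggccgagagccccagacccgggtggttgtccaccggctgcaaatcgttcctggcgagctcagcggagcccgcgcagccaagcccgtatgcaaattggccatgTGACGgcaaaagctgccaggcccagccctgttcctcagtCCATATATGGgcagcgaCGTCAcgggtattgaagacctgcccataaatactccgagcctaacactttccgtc
Dusp1 (chr17:26508520-26508722, reverse strand): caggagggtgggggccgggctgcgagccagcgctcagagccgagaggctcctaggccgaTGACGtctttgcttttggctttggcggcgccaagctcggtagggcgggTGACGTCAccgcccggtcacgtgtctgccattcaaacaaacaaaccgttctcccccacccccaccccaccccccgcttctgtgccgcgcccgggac
Btg2 (chr1:134079156-134079405, reverse strand): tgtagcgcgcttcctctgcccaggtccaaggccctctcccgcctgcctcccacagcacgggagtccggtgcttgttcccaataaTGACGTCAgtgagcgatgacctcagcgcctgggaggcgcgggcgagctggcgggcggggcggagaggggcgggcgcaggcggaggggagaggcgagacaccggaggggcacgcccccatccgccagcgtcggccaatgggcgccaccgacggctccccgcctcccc

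Each of the 6 genes had at least 2 core CRE matches in the 250 bases before a listed start, against 3.9% of the 32851 mouse windows of the same length and 7.73% of the tested genes with a window. In Btg2 both matches are the overlapping parts of its full CRE. The 3 Nr4a genes had 4 core matches each in that stretch, which 0.137% of all windows had, although the stretch shown for Nr4a3 stops at an annotated exon and holds 3. A full CRE was found before Dusp1, 143 bases from its start, and before Btg2, 166 bases from its start, and in 1.55% of all windows. A CArG box was found before Egr2, 72 bases from the start used above, and in 1.47% of all windows. Egr2 has 5 listed starts, and the window shown is one with the most matches. Its farthest upstream window held neither motif, and another held a CArG box but no core CRE match. These matches describe letters only and were not tested for binding, and the windows they are set against were not matched for base composition. Core matches stood both before Nr4a1, which differed most between the groups, and before Egr2, which differed little.

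Counts on genes summed to between 13667310 and 24356023 per library. All 9 RPE markers examined were among the tested genes. Their summed level was 40923 to 48156 CPM (counts relative to the library total, scaled by edgeR's TMM method) in control mice and 27325 to 35879 CPM in SRF mice. Summed over 9 macrophage and microglia markers, the level was 478 to 593 CPM in control and 770 to 954 CPM in SRF mice. Photoreceptor RNA differed most between libraries and did not follow the groups. The mean log2 CPM over 12 photoreceptor markers was 8.53 in control mouse 1 and 8.53 in SRF mouse 3, and between 4.27 and 5.72 in the other 4 libraries.

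With edgeR's quasi-likelihood test and Benjamini-Hochberg adjustment over all tested genes, 0 of the 10 genes were called, where a call needed an adjusted p-value below 0.05 and a log2 fold change of 0.5 or more in size. That test called 0% of all genes, 943 genes had an unadjusted p-value under 0.05, and DESeq2 called 153. Every fitted log2 fold change of the 10 was below 0, as for 49.7% of all tested genes, and their median was -0.91 against 0.00 over all tested genes. Of the 10, 8 were at -0.5 or lower, which 2.65% of all tested genes reached. In 5 of the 10 (Egr1, Egr3, Nr4a1, Nr4a2 and Arc) the unadjusted edgeR p-value was under 0.05 and the level lower in SRF, against 2.85% of all tested genes. Without control mouse 2 that number was 3 (Egr3, Nr4a1 and Arc), against 1.41% of all tested genes. DESeq2 called 3 of the 10, Nr4a1, Egr3 and Arc, all lower, against 0.334% of all genes called lower. Egr3 and Arc exceeded 50 counts only in control mice, so they entered the test through the group in which they were high. Every count over the 10 genes, and their median, includes both and therefore does not stand as support for a decrease. The study's own gene list, made on these same counts, holds those 3 genes, so their DESeq2 calls are not independent evidence. The groups did not overlap in 4 of the 10 (Egr1, Egr3, Nr4a1 and Arc), all lower in SRF, which 6.43% of all tested genes showed.

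**Figure D1:**
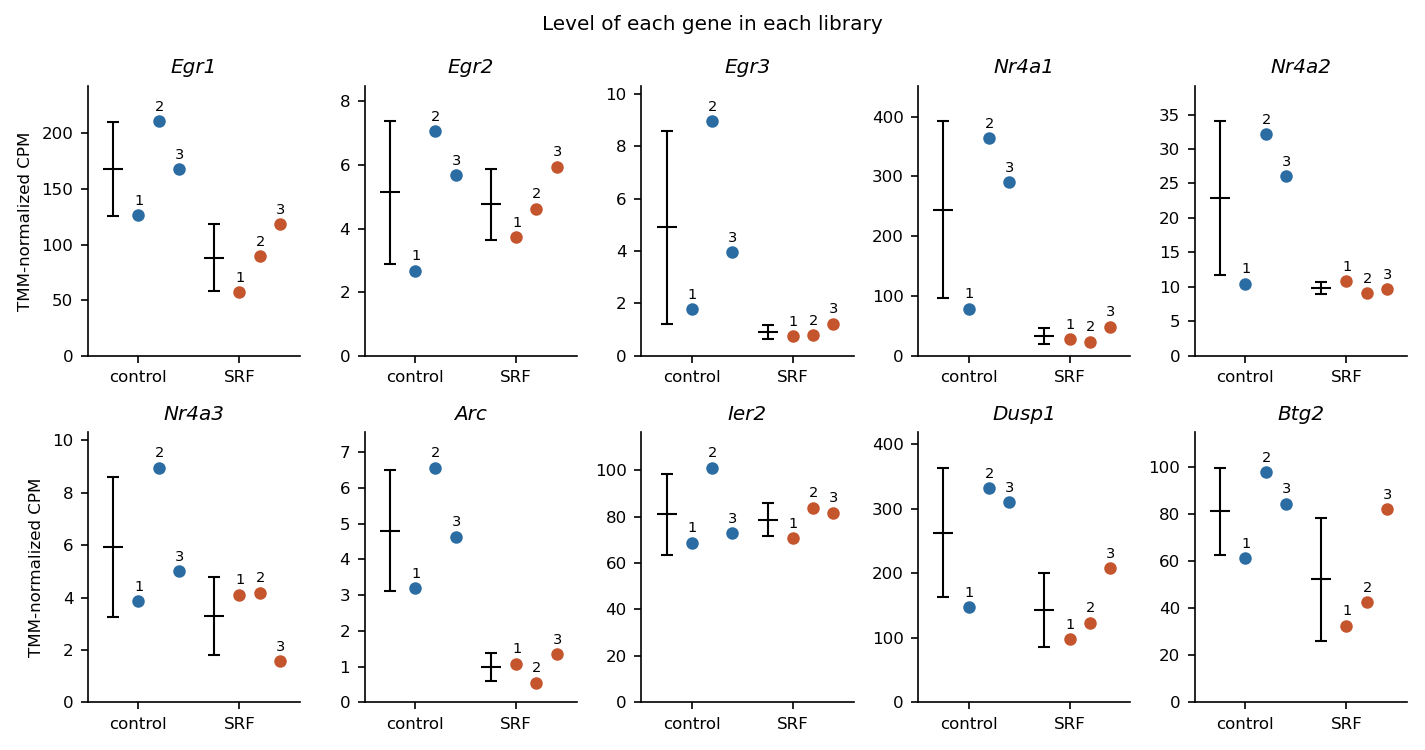
TMM-normalized CPM of each gene on a linear axis from 0, with a point per library (number, mouse) and the group mean with its SD beside the points (n = 3). Control mice 2 and 3 stand above all the other libraries in 8 of the 10 genes, and control mouse 1 is the lowest control in all 10. Egr3 and Arc, among the 8, passed the count filter only in control mice 2 and 3.

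Nr4a1 had the largest difference of the 10. Its gene lies on the forward strand of chromosome 15 (GRCm38) from 101254269 to 101274795. The level was 78.8, 364 and 290.0 CPM in control mice 1, 2 and 3 and 27.8, 23.4 and 48.8 CPM in SRF mice 1, 2 and 3. All 3 SRF mice were below all controls, but control mouse 1 was nearer to SRF mouse 3 than to the other controls. Control mice averaged 244 ± 148 CPM and SRF mice 33.4 ± 13.6 CPM (SD, n = 3 each). Nr4a1 had a log2 fold change of -2.87 (standard error 0.58, unadjusted p = 0.00167 and adjusted p = 0.287 in edgeR's test, adjusted p = 0.00413 in DESeq2's). A lower log2 fold change was found in 0.0149% of the tested genes, and with each library left out that of Nr4a1 ran from -3.29 to -2.47. The study also measured Nr4a1 by qRT-PCR in RPE-choroid, and reported a downward trend short of statistical significance.

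Nr4a2, the relative of Nr4a1 known for its role in dopamine neurons, lies on the reverse strand of chromosome 2 from 57106830 to 57124003. It was at 10.5, 32.1 and 26.0 CPM in control mice 1 to 3 and at 10.9, 9.13 and 9.69 CPM in SRF mice 1 to 3. The SRF mice were close together, control mice 2 and 3 were far above them, and control mouse 1 lay inside the SRF range. The difference was -1.21 on the log2 scale (standard error 0.38, unadjusted p = 0.0158 and adjusted p = 0.516 in edgeR's test). Without control mouse 2 the unadjusted edgeR p-value was 0.0606, and without SRF mouse 2 it was 0.0522.

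Nr4a3 lies on the forward strand of chromosome 4 from 48045153 to 48086447. Its level was 3.87, 8.95 and 5.01 CPM in control mice and 4.11, 4.18 and 1.57 CPM in SRF mice 1, 2 and 3. The groups overlapped, and the lowest value was that of SRF mouse 3, which was the highest SRF mouse for Nr4a1. The log2 fold change of -0.86 (standard error 0.49) did not pass in edgeR's test (adjusted p = 0.849). Per length, Nr4a1 was the most abundant of the 3 receptors in every library. The deposited FPKM of Nr4a1 was 10.5, 15.9 and 15.5 times that of Nr4a2 in control mice 1, 2 and 3 and 3.26, 3.44 and 7.06 times in SRF mice 1, 2 and 3. Nr4a1 was thus lower in SRF also relative to Nr4a2, by 1.68 on the log2 scale, and the ratios of the groups did not overlap. The exact permutation test, two-sided, gave p = 0.1, the smallest that 3 mice against 3 allow, and 0.133 adjusted over the 4 ratios examined. The ratio of Nr4a1 to Nr4a3 overlapped between the groups (exact permutation p = 0.2, two-sided, the same adjusted).

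Egr1 and Egr3 were lower in SRF and Egr2 was not separated. Egr1, a growth factor-induced regulator found in most tissues, was at 127, 211 and 168 CPM in control mice 1 to 3 and at 57.4, 89.4 and 118 CPM in SRF mice 1 to 3. The groups touched without overlapping, since control mouse 1 and SRF mouse 3 were close. This gave a log2 fold change of -0.93 (standard error 0.29, unadjusted p = 0.0157 and adjusted p = 0.516 in edgeR's test). DESeq2 gave an adjusted p of 0.0764, so it was not called there either.

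Egr3 encodes a factor studied mostly in neurons, muscle spindles and T cells, and lies on the forward strand of chromosome 14 from 70077203 to 70082614. It was rare, with 24, 165 and 95 counts in control mice 1, 2 and 3, respectively, while SRF mice 1, 2 and 3 had 14, 14 and 22 counts. The SRF mice were alike and the control mice spread widely. Control mouse 1, at 1.79 CPM, had an exact Poisson 95% interval of 1.14 to 2.66 CPM, which overlaps that of SRF mouse 3 (0.772 to 1.87 CPM around 1.23 CPM). Such intervals cover counting error only. Egr3 had a log2 fold change of -2.41 (standard error 0.63, unadjusted p = 0.00684 and adjusted p = 0.413 in edgeR's test, adjusted p = 0.0344 in DESeq2's). Without control mouse 2 it was -1.64. Egr3 had passed the minimum of 50 counts only in control mice 2 and 3, and with all listed genes tested the adjusted edgeR p was 0.440.

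Egr2, the factor of myelinating Schwann cells, lies on the forward strand of chromosome 10 from 67535475 to 67542188. It was at 2.68, 7.05 and 5.67 CPM in control mice and at 3.73, 4.62 and 5.94 CPM in SRF mice. Control mouse 1 held the lowest value of all 6 libraries and control mouse 2 the highest. The difference was -0.11 on the log2 scale (standard error 0.40, adjusted p = 0.9999 in edgeR's test), and it turned to 0.18 without control mouse 2. The FPKM ratio of Egr1 to Egr2 ran from 26.8 to 43.5 in control and from 14.0 to 17.5 in SRF mice. The ratio of Egr1 to Egr3 ran the other way, from 26.8 to 86.0 in control and from 94.3 to 141 in SRF mice. Neither ratio overlapped between the groups, each with an exact permutation p of 0.1, two-sided, and 0.133 adjusted over 4 ratios. Egr3 had passed the count filter only in control mice, so the ratio of Egr1 to Egr3 does not stand as support for a difference.

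Arc was rare too, and lower in every SRF mouse than in every control mouse. It lies on the reverse strand of chromosome 15 from 74669083 to 74672570 and had 43, 121 and 111 counts in control mice 1, 2 and 3. In SRF mice 1, 2 and 3 it had 20, 10 and 24 counts. These are 3.20, 6.56 and 4.63 CPM in control and 1.08, 0.557 and 1.34 CPM in SRF mice. Control mouse 1 was again the lowest control, but here its exact Poisson 95% interval, 2.32 to 4.31 CPM, lay above those of all SRF mice. Such intervals cover counting error only and not differences between mice. Arc had a log2 fold change of -2.27 (standard error 0.47, unadjusted p = 0.00194 and adjusted p = 0.298 in edgeR's test, adjusted p = 0.00432 in DESeq2's). It stayed between -2.54 and -1.97 with each library left out. Arc, too, had passed the minimum of 50 counts only in control mice 2 and 3, and with all listed genes tested the adjusted edgeR p was 0.292. Arc is best known from neurons, and the summed level of 12 inner retina neuron markers was 637 to 1078 CPM in control and 530 to 1223 CPM in SRF mice. Those neuron markers were highest in control mouse 1 and SRF mouse 3, which had the lowest Arc of the control mice and the highest of the SRF mice. The part of neuron content in the difference was not tested.

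Dusp1, Btg2 and Ier2 were abundant, and in all 3 genes the groups overlapped. Over all its annotated transcripts, Dusp1 lies on the reverse strand of chromosome 17 from 26505590 to 26562128. This span overlaps the counted gene Ergic1 on the forward strand, and the RefSeq start used above lies inside it. Whether the transcript from that start overlaps Ergic1 was not examined. The use of strand in counting was not given in the sources used here. Dusp1 was at 148, 332 and 309.6 CPM in control mice 1 to 3 and at 97.9, 124 and 207 CPM in SRF mice 1 to 3. SRF mouse 3 was above control mouse 1, so the groups overlapped. The difference was -0.88 on the log2 scale (standard error 0.38, unadjusted p = 0.0531 and adjusted p = 0.724 in edgeR's test). Btg2 lies on the reverse strand of chromosome 1 from 134075170 to 134079120 and was at 61.3, 97.7 and 84.3 CPM in control and 32.4, 42.4 and 81.8 CPM in SRF mice 1, 2 and 3. SRF mouse 3 was nearly level with control mouse 3, while the other SRF mice were below every control. Btg2 had a log2 fold change of -0.64 (standard error 0.35, adjusted p = 0.837 in edgeR's test).

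Ier2, on the reverse strand of chromosome 8 from 84661331 to 84662852, was the flattest of the 10. It was at 68.8, 101 and 72.9 CPM in control mice 1 to 3 and at 70.6, 83.9 and 81.6 CPM in SRF mice 1 to 3. The highest control was the only library to stand apart. The fitted difference was -0.04 on the log2 scale (standard error 0.17, adjusted p = 0.9999 in edgeR's test), and it turned positive with library totals in place of TMM, at 0.0095. The genes of the set thus did not all differ to the same degree.

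**Figure D2:**
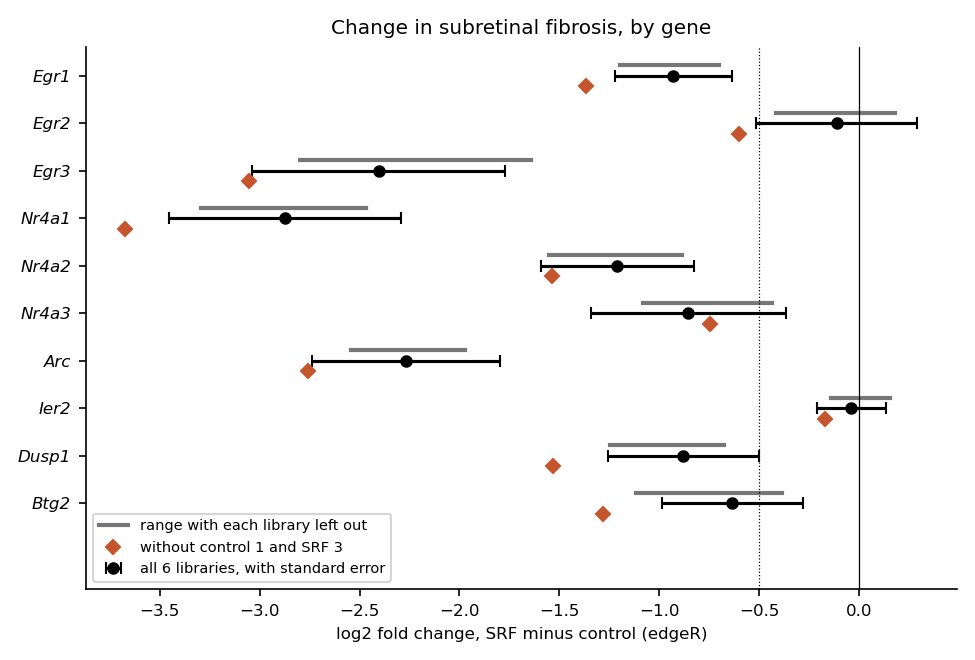
Log2 fold change of SRF over control from edgeR, with its standard error over all 6 libraries (black), the range when each library is left out (grey bar) and the value without control mouse 1 and SRF mouse 3 (diamond). The dotted line marks -0.5. Nr4a1, Egr3 and Arc lie furthest to the left, and the black points of Egr2 and Ier2 lie near 0. The diamond of Egr2 is at -0.60.

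Per length, the order of the mean FPKM in control mice was Dusp1 (134 ± 48.0), Nr4a1 (96.5 ± 58.3), Ier2 (52.0 ± 11.04), Egr1 (50.5 ± 11.7), Btg2 (29.0 ± 6.502), Nr4a2 (6.47 ± 3.14), Egr2 (1.70 ± 0.732), Arc (1.54 ± 0.537), Egr3 (1.25 ± 0.962) and Nr4a3 (1.02 ± 0.456), each with its SD over 3 mice. Neighbours in this order differed by less than the larger of their SDs, except Egr1 and Btg2, Btg2 and Nr4a2, and Nr4a2 and Egr2. In SRF mice Nr4a1 was at 13.6 ± 5.44 FPKM, below Dusp1 (73.5 ± 28.9), Ier2 (52.4 ± 4.93), Egr1 (27.6 ± 9.47) and Btg2 (19.3 ± 9.53), and Egr3 was last at 0.237 ± 0.0723 FPKM.

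The control mice differed widely among themselves. Control mouse 1 was the lowest control for all 10 genes, as it was for 34.6% of all tested genes. Control mice 2 and 3 were both above control mouse 1 and above every SRF mouse for 8 of the 10, against 8.06% of all tested genes. The 8 include Egr3 and Arc, which passed the count filter only in control mice 2 and 3. That count and the medians here therefore do not stand as support for a difference among the control mice. The mean of control mice 2 and 3 was above control mouse 1 by 0.95 (log2, median) over the 10 genes, against -0.02 over all tested genes. For Nr4a1 it was 4.12-fold higher, for Egr3 3.33-fold, for Nr4a2 2.75-fold and for Egr2 2.36-fold. Control mouse 1 lay above the SRF range for 4 genes (Egr1, Egr3, Nr4a1 and Arc), inside it for 4 and below it for 2 (Egr2 and Ier2). Its median excess over the mean of the SRF mice was 0.36 on the log2 scale, against 1.20 for control mice 2 and 3. Summed over the 10 genes, the level was 505, 1169 and 970 CPM in control mice 1, 2 and 3 and 307, 382 and 558 CPM in SRF mice 1, 2 and 3, so control mouse 1 stood between SRF mice 2 and 3.

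**Figure D3:**
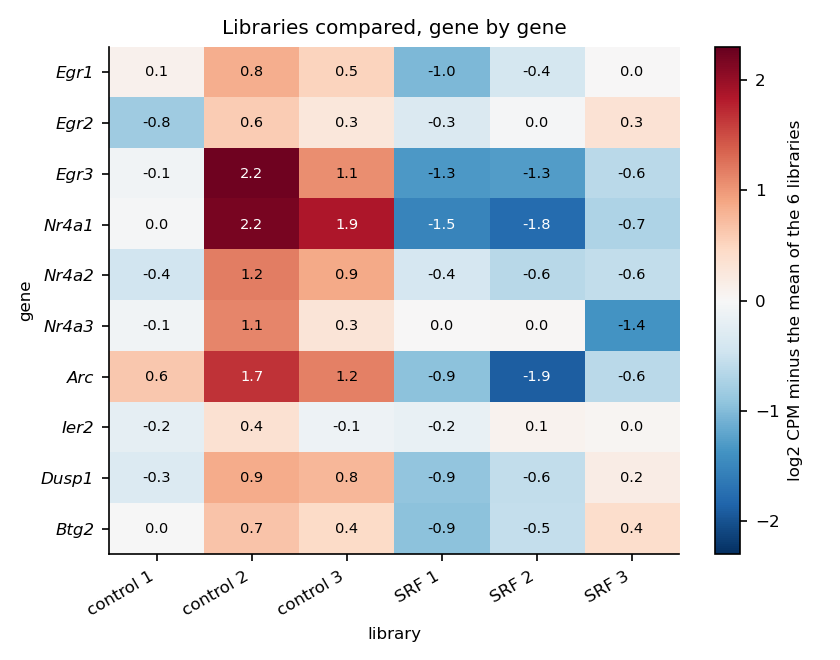
Log2 CPM of each gene (rows) in each library (columns) after its mean over the 6 libraries was subtracted, red above and blue below that mean. Control 2 and control 3 are red in nearly every row, control 1 is pale or blue in all but Arc, and SRF 1 and SRF 2 hold most of the dark blue.

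The spread within a group was large for most of the 10. The median SD of log2 CPM was 0.63 in control mice, against 0.20 over all tested genes, and 0.54 in SRF mice, against 0.23. In control mice the SD was 1.19 for Nr4a1, above 95.9% of all tested genes, and 1.16 for Egr3, above 95.8%. Egr3 and Arc had passed the count filter only in control mice. The control rank of Egr3 and the medians and counts here therefore do not stand as support for a wide spread. In SRF mice Nr4a1 and Egr3 had SDs of 0.55 and 0.39, and Nr4a2 had 0.13, under most tested genes. Of the 10 genes, 6 had a smaller SD in SRF than in control mice. At their own abundance they also varied more than usual, since the fitted dispersion was a median of 1.38 times edgeR's trend, against 0.61 over all tested genes, and 4.70 times for Nr4a1.

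**Figure D4:**
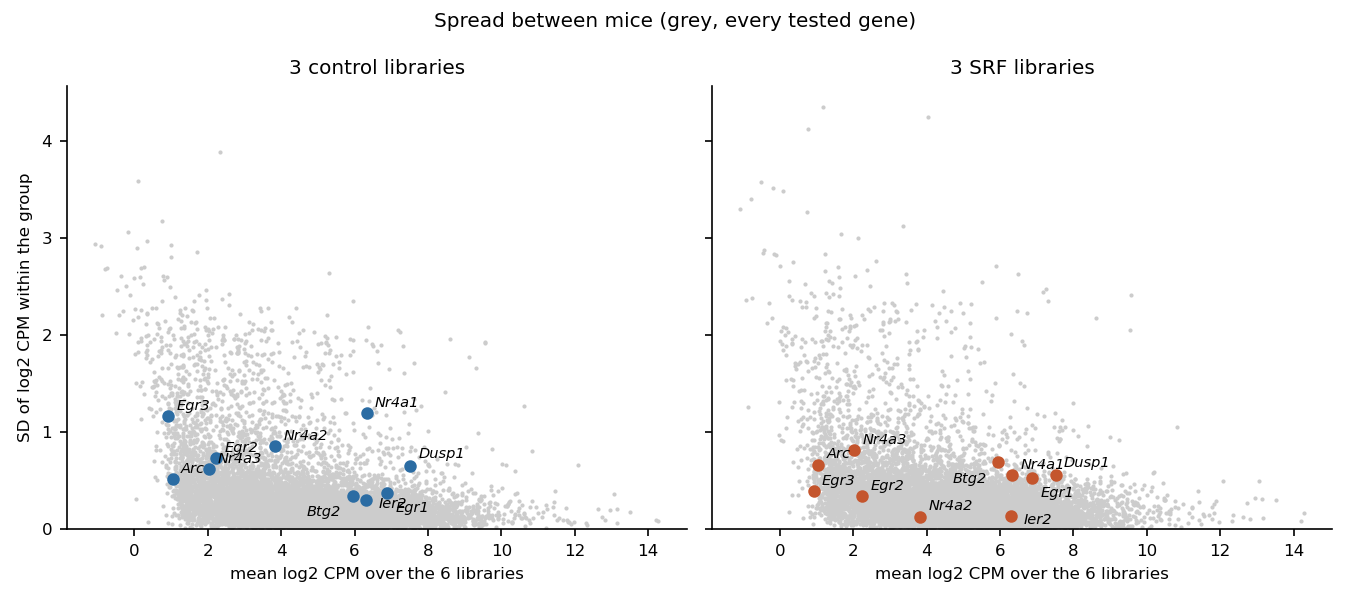
SD of log2 CPM over the 3 control libraries (left) and the 3 SRF libraries (right) against the mean log2 CPM, for every tested gene (grey) and the 10 genes (coloured). In control mice Nr4a1 at 1.19 and Egr3 at 1.16 lie in the upper part of the grey field, and Nr4a2 lies at 0.13 in SRF mice.

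Levels of other cell types moved with parts of this pattern. Control mouse 1 and SRF mouse 3 were the libraries rich in photoreceptor RNA, with 12828 and 12373 CPM over the 12 photoreceptor markers, and they sat at the inner edge of their groups for most of the 10 genes. SRF mouse 3 was the highest SRF mouse for 7 of the 10, and for 40.2% of all tested genes. Without both libraries, edgeR called 7 of the 10 genes, all lower in SRF, against 0.32% of all tested genes called lower. These were Egr1, Egr3, Nr4a1, Nr4a2, Arc, Dusp1 and Btg2, and the median log2 fold change of the 10 was -1.45. The same 7 had an unadjusted p-value under 0.05 there, against 8.1% of all tested genes lower at that level. That fit rests on 2 mice against 2. The 2 libraries left out were those nearest the other group for most of the 10 genes. Leaving out either widens most of these differences by construction, so counts from such fits do not stand as support for a decrease. The 7 also include Egr3 and Arc, which passed the count filter only in control mice. Without SRF mouse 3 alone, those 7 again had an unadjusted edgeR p-value under 0.05, against 5.47% of all tested genes, and 0 were called. With the photoreceptor level as a term over all 6 mice, 0 of the 10 were called, 7 had an unadjusted edgeR p-value under 0.05 against 3.75% of all tested genes, and the log2 fold change of Nr4a1 was -2.83 (adjusted p = 0.163). These 7 held Nr4a3 in place of Btg2, and they too include Egr3 and Arc.

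Lens RNA was higher in the control mice in which the early genes were high. The mean log2 CPM over the 4 tested lens markers was 3.29 in control mouse 2, 2.22 in control mouse 3 and between -0.71 and 0.49 in the other 4 libraries. The summed lens level was 5.06 to 47.1 CPM in control and 5.79 to 8.68 CPM in SRF mice. Crygc, Crygd and Mip, the other 3 genes of that list, were not analysed here. Over 5 ocular surface epithelium markers the mean log2 CPM was lowest in control mouse 1, at 4.69, and highest in control mice 3 and 2, at 7.81 and 6.95, with 5.85 to 6.71 in SRF mice. The RPE markers were lower in SRF in 8 of 9 genes, with a median log2 fold change of -0.36, smaller in size than that of the 10 genes, and the macrophage markers were higher in 8 of 9, with a median of 0.72. The 5 mast cell markers were all higher in SRF, with a median of 1.27 and a summed level of 39.2 to 44.8 CPM in control and 61.8 to 70.7 CPM in SRF mice. The 6 fibroblast markers were all higher as well, with a median of 0.54, although their summed level overlapped between the groups (4315 to 10072 and 6626 to 11036 CPM). The part of lens, surface, photoreceptor, RPE, macrophage, mast cell and fibroblast content in these differences was not tested.

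Most of the 10 genes had few exons. All but the Nr4a genes (7 of the 10) had 3 exons or fewer in their longest annotated transcript, against 19.7% of all tested genes, and the 3 Nr4a genes had 8 exons each, which is the median over all tested genes. The median gene span was 6063 bases, against 25241 over all tested genes, and ran from 1522 bases for Ier2, the gene with a sole exon, to 41295 for Nr4a3 and 56539 for Dusp1, both longer than that median. The Dusp1 span covers all its annotated transcripts. Its RefSeq window, from 26508423 to 26508722 on the reverse strand, lies inside that span, so the transcript from that start is shorter than the span. The longest transcripts had a median of 3010 bases, close to the 3476 of all tested genes.

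Other early response genes were followed in 7 lists, written with earlier results of these data known. Of 127 genes, 111 were tested and 67 were lower in SRF and 44 higher, with a median log2 fold change of -0.08. edgeR's test called 0 of them, 13 were lower and 7 higher at an unadjusted p-value under 0.05, and DESeq2 called 7. The background was 7.01% of all tested genes at an unadjusted edgeR p-value under 0.05, and 1.14% called by DESeq2, in either direction.

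The feedback inhibitors of MAP kinase signaling held the most DESeq2 calls of the 7 lists. Of 18 tested genes, 14 were lower, 6 of them at an unadjusted edgeR p-value under 0.05, against 2.85% of all tested genes. At that level 2 were higher (Socs3 and Spred1). DESeq2 called 4 of the 18, all lower and all with groups that did not overlap. Over all tested genes, DESeq2 called 0.334% lower, and 6.43% had every SRF mouse below every control mouse. The study's own gene list from these same counts holds Spry2, Dusp6 and Sik1, so their DESeq2 calls are not independent evidence. Spry2, which dampens receptor tyrosine kinase signals, had 133 ± 26.4 CPM (SD, n = 3) in control against 72.2 ± 2.72 CPM in SRF mice (log2 fold change -0.88, standard error 0.16). Dusp6, the phosphatase of ERK, was at 298 ± 49.1 against 176 ± 23.2 CPM (-0.76, standard error 0.17). Dusp4, its nuclear relative, was at 68.9 ± 9.88 against 45.1 ± 3.77 CPM (-0.61, standard error 0.14). Sik1, a kinase that restrains CREB co-activators, was at 7.37, 20.8 and 18.1 CPM in control mice 1, 2 and 3 and at 4.38, 5.12 and 4.93 CPM in SRF mice (-1.68, standard error 0.38). Control mouse 1 was nearer to the SRF mice than to the other controls for Sik1, as for Nr4a1.

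The AP-1 and other early transcription factors moved both ways. Of 26 tested, 16 were lower, 3 of them at an unadjusted edgeR p-value under 0.05 (Per2, Klf2 and Fos), and Jund alone was higher at that level. Jund had 24.4 ± 3.30 CPM in control mice and 75.3 ± 21.8 CPM in SRF mice, higher by 1.63 on the log2 scale (standard error 0.24, adjusted p = 0.198 in edgeR's test), and DESeq2 called it. The study's own gene list from these same counts also holds Jund, but its qRT-PCR did not bear out the rise. Per2, a clock gene, was at 19.4 ± 1.69 against 13.2 ± 0.957 CPM, with a log2 fold change of -0.55 (standard error 0.15). The control mice were alike for both genes, unlike for Nr4a1.

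Of 18 genes of mRNA decay and growth restraint, 9 were lower and 9 higher. At an unadjusted edgeR p-value under 0.05, 3 were higher and 1 lower, against 7.01% of all tested genes in either direction. Tob1, a relative of Btg2, had 118 ± 6.09 CPM in control mice and 76.4 ± 10.8 CPM in SRF mice (log2 fold change -0.63, standard error 0.13), and DESeq2 called it. Cdkn1a, the cell cycle inhibitor p21, was at 30.02 ± 3.57 against 51.3 ± 13.1 CPM (log2 fold change 0.77, standard error 0.21, adjusted p = 0.421 in edgeR's test). Of 13 neuronal activity genes, 10 were lower and 3 of those had an unadjusted edgeR p-value under 0.05. Bdnf, the neurotrophin, was at 16.7 ± 2.12 against 9.94 ± 1.51 CPM (log2 fold change -0.75, standard error 0.19), and Cpeb4, a regulator of translation, at 66.3 ± 6.08 against 50.3 ± 1.64 CPM (-0.40, standard error 0.12). DESeq2 called 0 genes of that list.

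Among 9 early secreted and matrix proteins, Thbs1, thrombospondin 1, was called by DESeq2, with 428 ± 169 CPM in control mice and 850 ± 149 CPM in SRF mice (log2 fold change 0.99, standard error 0.29). Cxcl1, a neutrophil chemokine, was at 1.19, 3.58 and 4.17 CPM in control mice 1 to 3 and at 0.757, 1.504 and 1.34 CPM in SRF mice, overlapping between the groups. Cxcl1 passed the count filter only in control mice, so it does not stand as support for a difference. Among factors that act before the 10 genes, no difference passed a test. Of 25 tested, among them the genes of CREB, of serum response factor and of the ERK kinases, 0 had an unadjusted edgeR p-value under 0.05 and DESeq2 called 0. The smallest edgeR p-values there were 0.115 for Rps6ka1, an ERK-activated kinase (log2 fold change 0.24, standard error 0.13), and 0.150 for Elk3, an ETS partner of serum response factor (0.29, standard error 0.18). Nab1 and Nab2, the co-repressors that bind Egr proteins, had log2 fold changes of -0.12 (standard error 0.13) and -0.04 (standard error 0.22).

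**Figure D5:**
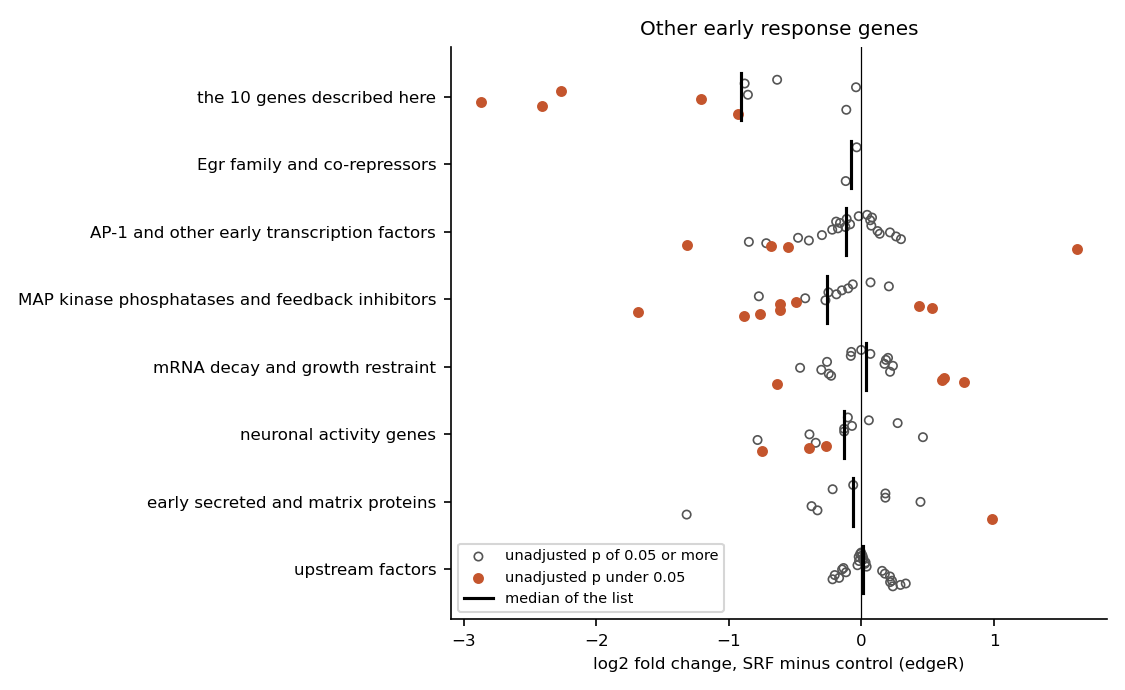
Log2 fold change of SRF over control from edgeR for each tested gene of the 7 further lists and the 10 genes (top), filled where the unadjusted p-value was under 0.05, with a bar at the list's median. The top list has its median at -0.91, the feedback inhibitors at -0.26 and the other lists between -0.13 and 0.03.

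The genes whose pattern over the 6 libraries was most like the mean of the 10 were picked by the mean absolute difference of log2 CPM, each centred on its own mean. Sik1 was the nearest, at 0.21, followed by Stc1 at 0.24, Ctla2b at 0.24, Cldn2 at 0.25 and Zfp454 at 0.26. Ctla2b and Zfp454 were rare and passed the count filter only through the control mice. Their place in this order therefore does not stand as support for a shared pattern. Among the 10 genes themselves the distance to the mean of the other 9 was smallest for Nr4a2, at 0.22, and Dusp1, at 0.24, and largest for Nr4a1, at 0.84. Stc1, stanniocalcin 1, was at 34.1, 70.3 and 87.1 CPM in control mice 1, 2 and 3 and at 27.3, 31.3 and 38.3 CPM in SRF mice 1, 2 and 3. Cldn2, a pore-forming claudin of tight junctions, was at 42.6, 65.4 and 88.9 CPM in control and 34.9, 31.7 and 41.6 CPM in SRF mice. Both shared the low value of control mouse 1 with the 10 genes, but were highest in control mouse 3, where the 10 were highest in control mouse 2.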

How the data were processed

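RNA-seq tables of RPE-choroid from 3 control and 3 SRF mice were analysed, with each group and mouse number taken from the sample labels. The authors filtered reads with FASTP and counted reads per gene with StringTie. The deposited counts are not normalized. The authors also deposited FPKM, scaled by transcript length and mapped reads. The aligner, genome build and strandedness are not given in the sources used here. Of 15663 identifiers, 15659 were found in GENCODE M21 (GRCm38), and no listed gene has a count under 1.

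Genes over 50 counts in 2 or more libraries were tested with edgeR 4.0.16 in R 4.3.3 (TMM, glmQLFit with legacy = TRUE, glmQLFTest, group as the only term) with Benjamini-Hochberg adjustment over 13454 genes. Thresholds were an adjusted p-value of 0.05 and a log2 fold change of 0.5, as in the study. Standard errors are the log2 fold change over the square root of F. DESeq2 1.42.0 and limma 3.58.1 were alternatives. Exact permutation tests used scipy 1.17.1 and cannot go under p = 0.1 with 3 against 3. Scripts were tested on simulated data. Genes of the further lists were named by the 2 smallest p-values per list and by DESeq2's call, and 5 genes by likeness to the mean of the 10. Single genes named beside counts (Socs3, Spred1, Klf2, Fos) were chosen after their values were seen. The genes, lists and alternatives were chosen with earlier results of these data known. The standard error of the log2 fold change, 0.19 at the median gene, limits what these depths and 3 mice a group can show.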

Additional observations from a re-analysis of the deposited data

How the results depend on the processing

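With alternatives, the calls among the 10 genes changed in 2 settings: DESeq2 called 3 genes, and edgeR without both photoreceptor-rich libraries called 7, with a median log2 fold change of -1.45. For most of the 10 genes those libraries were the nearest to the other group, so leaving them out widened the differences by construction. The other settings called 0 of the 10 and kept the median log2 fold change between -1.20 and -0.71. Over all genes, 0 were called by edgeR, 153 by DESeq2, 154 without both photoreceptor-rich libraries, 2 by limma on log2(FPKM + 0.1) and 2 on log2(FPKM + 1). A single gene (1) was called by limma-voom, with legacy = FALSE, with upper quartile normalization, with library totals only, without a count filter, with filterByExpr and with the photoreceptor level as a term. With each mouse left out, between 0 and 5 genes were called, the 5 without control mouse 1, and between 3 and 7 of the 10 genes had an unadjusted edgeR p-value under 0.05, the 3 without control mouse 2. At that p-value 560 of all genes were higher and 383 lower with TMM, 722 and 261 with library totals only, and 753 and 240 with limma on log2(FPKM + 0.1).

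Egr2 and Ier2 changed direction in some settings. Egr2 was at 0.051 and 0.015 with limma on log2(FPKM + 0.1) and log2(FPKM + 1), and ran from -0.42 to 0.18 when a library was left out. Ier2 was at 0.0095 with library totals only, at 0.026 and 0.025 with limma on FPKM in the same order, and ran from -0.14 to 0.15 when a library was left out. The causes were not tested. With a replicate block for the mouse number, edgeR called 0 genes, and 6 of the 10 had an unadjusted p-value under 0.05, against 3.96% of all genes lower at that level. Dusp1 and Btg2 passed that level under the block and Nr4a2 did not. The numbers do not pair the mice: deviations of same-numbered libraries had correlations across genes of -0.48, 0.47 and -0.31, and 0 of 3 control libraries went best with their own number. Counts of 10 to 24 limit what Arc and Egr3 can show in SRF mice.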
